A study of Mus musculus with 24 samples.

Results

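Interferon-stimulated genes were followed in the cells of Panc02 tumors. The list held 51 genes that interferons are known to induce, and its members were found by gene symbol. Of these, 50 were among the 32285 genes of the count matrix, and *Mx1* was not analysed here. All 50 had UMIs in the cells compared.

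Panc02, a mouse pancreatic cancer cell line, was implanted under the skin of male WT C57BL/6 mice aged 6 to 7 weeks, and tumors were collected after treatment, on a day that the sources used here give in more than 1 way. All 8 treatments came from such mice. PancVAX, a vaccine of Panc02 neoantigen peptides given with AddaVax and a STING agonist, was injected on days 12 and 19, anti-CTLA-4 on days 15 and 22, and anti-PD-1 repeatedly from day 12. The treatments were Isotype Control, Anti-PD-1, Anti-CTLA-4, Anti-PD-1 + Anti-CTLA-4, and the same 4 with PancVAX: PancVAX, PancVAX + Anti-PD-1, PancVAX + Anti-CTLA-4, and a last group that received PancVAX and both antibodies. Mice without PancVAX received PBS in its place, and mice without an antibody received an isotype antibody. Each treatment gave 1 library of dissociated whole tumor and 1 of tumor cells separated on Percoll, a density medium. The authors used Percoll to enrich immune cells, and whether it did so was not tested here. The cells of a treatment came from several pooled mice, so that single mice cannot be told apart. A pool is here the sum of both libraries of a treatment, and the sources used here do not say whether both were made from the same cells. Preparation and sequencing batch were the same split. The 4 pools with PancVAX differed from each other in their antibodies, as did the 4 without it. *P* values over the pools therefore measure the spread among pools, not among mice, and those of fits to single libraries the spread between the 2 preparations of a treatment.

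Type I interferons (IFN-α and IFN-β) signal through a receptor of the IFNAR1 and IFNAR2 chains, and the kinases below it activate a complex with STAT2 and IRF9 that binds the interferon-stimulated response element (ISRE) in promoters. IFN-γ, made by T cells and NK cells, signals through IFNGR1 and IFNGR2 to factors that bind the gamma-activated site (GAS). The induced genes block viral replication, sense viral RNA, tag proteins with ISG15, attack vacuoles of intracellular microbes, and feed back on the pathway. In tumors the same genes are expressed by immune, stromal, and cancer cells, and a STING agonist is itself an inducer of type I interferon.

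An element shared by many of these genes can be read in their promoter sequences. RefSeq promoters of GRCm38.p6, from 250 bases before to 50 after the transcription start, were matched to 41 of the 50 genes. The ISRE core, a pair of GAAA separated by any 2 bases on either strand, was present in the promoter of 25 of these 41 genes (61.0%) and of 3.99% of all 27025 genes with a promoter. The GAS core, TTCNNNGAA, whose letters read the same on both strands, was present for 10 of 41 (24.4%) and for 9.55% of all genes. A match is a description of the letters and not of binding. The 4 promoters below were chosen among members that were higher with PancVAX in CD8 T cells, as described later. They hold the most ISRE cores, with ties broken by level in CD8 T cells, so they are not typical of the list. Capitals mark the core on either strand, and overlapping cores run together.
Isg15, chr4:156200835-156200936, minus strand, 118 to 17 bases before the start: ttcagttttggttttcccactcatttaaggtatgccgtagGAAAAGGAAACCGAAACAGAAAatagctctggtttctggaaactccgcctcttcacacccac
Bst2, chr8:71537547-71537642, minus strand, 170 to 75 bases before the start: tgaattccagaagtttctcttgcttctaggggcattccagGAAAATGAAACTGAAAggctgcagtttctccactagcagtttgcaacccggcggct
Ifit3, chr19:34583333-34583456, plus strand, 196 to 73 bases before the start: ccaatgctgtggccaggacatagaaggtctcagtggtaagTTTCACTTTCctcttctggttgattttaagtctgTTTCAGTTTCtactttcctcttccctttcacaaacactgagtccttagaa
Gbp3, chr3:142559959-142560043, plus strand, 85 to 1 bases before the start: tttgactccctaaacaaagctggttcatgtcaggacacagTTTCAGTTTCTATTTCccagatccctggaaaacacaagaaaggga
*Isg15* held 3 overlapping cores, *Bst2* 2 overlapping cores, *Gbp3* 2 overlapping cores on the opposite strand, and *Ifit3* 2 separate ones.

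The libraries held 77132398–176233225 UMIs each, and 57357 of 144994 barcodes passed the limits on cells, 1793–7413 per library. A barcode sequence was shared by more than 1 library for 4171 cells (7.27%). Cells were assigned to gates by markers detected, with 10495 cells in the CD8 T gate, 13229 in the monocyte/macrophage gate, 7351 in the neutrophil gate, and 131–7114 in the others. The smallest number of markers allowed, 2 of 5, was all that 86.3% of cells in the keratin gate and 66.0% in the dendritic gate had, against 3.91% in the CD8 T gate and 27.4% of all gated cells. The gate set by *Krt8*, *Krt18*, and other keratin genes is called the keratin gate. Of 3 further epithelial genes, *Cldn7* was highest there (14.4% of its cells), while *Cldn4* (0.0703%) and *Sox9* were not. The gate set by *Col1a2*, *Col3a1*, and other matrix genes is called the collagen gate. The upper limits on genes and UMIs kept 7114 of 35654 cells of the keratin gate and 1791 of 11262 of the collagen gate. They kept 10495 of 12547 in the CD8 T gate, so values of the keratin and collagen gates come from a minor part of their cells. A marker of another gate was detected in 73.7%, 89.5%, and 57.0% of the cells kept, in the same order. *Itgax*, a dendritic cell gene, was detected in 49.3% of cells of the monocyte/macrophage gate and 41.7% of the dendritic gate.

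The level of the 50 genes differed among the gates. Summed over the genes, neutrophils had the highest mean level, 89.9 ± 18.1 counts per 10,000 (SD, n = 16 libraries), with a range of 59.3–129. The plasmacytoid gate had 75.0 ± 25.9 (n = 4 libraries, 3 with PancVAX and 1 without it), within 1 SD of neutrophils. The endothelial gate had 50.0 ± 12.6 (n = 12). CD4 T cells had 43.3 ± 8.25 and the monocyte/macrophage gate 39.6 ± 4.87, values within 1 SD of each other. CD8 T cells had 31.1 ± 10.2, the collagen gate 30.3 ± 4.77, and the keratin gate 27.9 ± 5.68, which also differed by less than their spread when all 16 libraries were pooled. Split by PancVAX, this did not hold. In the 8 libraries without PancVAX, CD8 T cells had 22.5 ± 2.64, below the collagen gate at 28.1 ± 3.42 and the keratin gate at 25.7 ± 3.07, and in the 8 with it they had 39.8 ± 6.49, above 32.4 ± 5.16 and 30.1 ± 6.99, each difference being larger than 1 SD. The lowest 3 were dendritic cells at 22.9 ± 7.91, NK cells at 20.8 ± 6.57, and B cells at 20.4 ± 2.72, again within 1 SD of one another. UMIs at the 5′ end do not scale with gene length, so the sum is not weighted by it. The sum is a share of the UMIs of each cell and not a number of UMIs per cell. Neutrophils had the lowest median UMIs per cell of the gates, 1495. CD8 T cells had 3908, monocytes and macrophages 4483, and the plasmacytoid gate 5190. The part of this difference in the order of the gates was not tested.

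**Figure D1:**
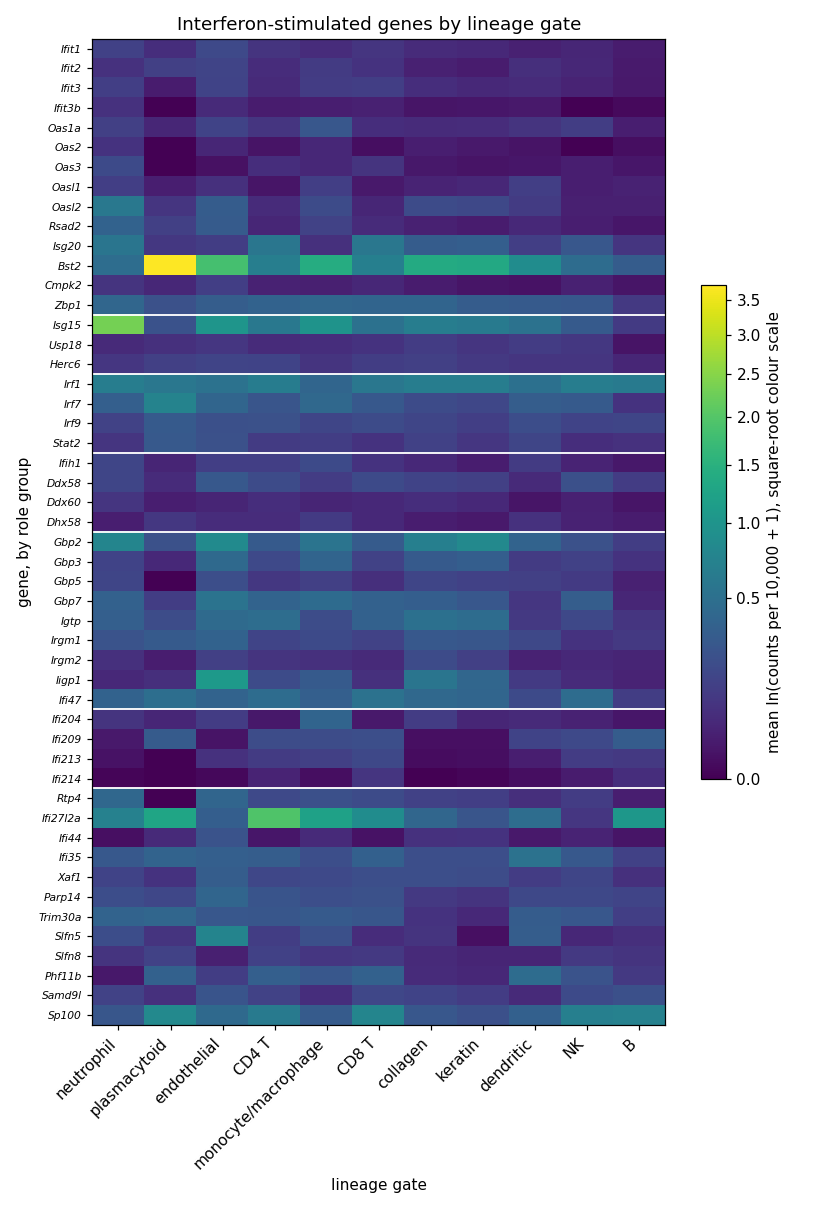
Heatmap of the level of each of the 50 interferon-stimulated genes (rows, by role) in 11 gates (columns), as the mean over libraries of natural-log counts per 10,000 plus 1, with a square-root color scale. *Isg15* in neutrophils (2.33) and *Bst2* in the plasmacytoid gate (3.72) stand out. The endothelial gate, with 313 cells, has the highest mean for 17 genes.

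The endothelial gate had the highest mean of 17 genes, neutrophils of 8, the plasmacytoid gate of 7, monocytes and macrophages of 5, and CD8 T cells of 4, with no more than 3 in any other gate. These orders of means were not tested and rest on as few as 4 libraries in the plasmacytoid gate. The endothelial gate held 313 cells in all, and some of its values had a spread near their mean, as for *Ifit1* (0.18 ± 0.14). The means also pool libraries with and without PancVAX. *Isg15*, the ubiquitin-like protein that is joined to other proteins after interferon, had a mean log level of 2.33 ± 0.25 in neutrophils, 1.02 in the endothelial gate, 0.97 in monocytes and macrophages, 0.52 in CD8 T cells, and 0.11 in B cells. The modifier and its enzymes (*Isg15*, *Usp18*, *Herc6*) together reached 38.0 ± 8.37 counts per 10,000 in neutrophils and 5.38 in the monocyte/macrophage gate. *Bst2*, the membrane tether that holds budding virus and is a known marker of plasmacytoid dendritic cells, was at a log level of 3.72 ± 0.33 in the plasmacytoid gate and 1.86 in the endothelial gate. It carried the antiviral effectors to 49.6 counts per 10,000 there, against 17.1 in neutrophils and 2.14 in B cells.

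The inducible GTPases, which coat and break the vacuoles of intracellular microbes, had their highest mean in the endothelial gate, at 14.2 ± 3.40 counts per 10,000 (n = 12 libraries). Neutrophils followed at 12.6 ± 2.41, within 1 SD. The keratin gate had 10.9 ± 2.79, the collagen gate 10.7 ± 2.12, and B cells the lowest mean, 1.88. *Iigp1*, one of these GTPases, had a log level of 1.07 ± 0.33 in the endothelial gate, 0.56 in the collagen gate, 0.41 in the keratin gate, and 0.07 in CD8 T cells. The keratin, collagen, and endothelial gates held this group at higher means than CD4 T cells (6.35 counts per 10,000), CD8 T cells (5.15), and NK cells (3.99). The PYHIN family, cytosolic and nuclear DNA sensors, had another order of means, with 1.68 ± 0.16 counts per 10,000 in monocytes and macrophages and 1.54 ± 0.31 in B cells. CD8 T cells had 1.24 ± 0.55, a value that pools libraries with and without PancVAX, and the keratin gate had 0.101. Its member *Ifi204* was highest in monocytes and macrophages (0.38 ± 0.04) and its member *Ifi214* in CD8 T cells (0.09 ± 0.04). *Ifi27l2a*, a small hydrophobic interferon-inducible protein, was highest in CD4 T cells at 1.95 ± 0.36, against 1.21 in monocytes and macrophages, 1.04 in B cells, 0.88 in CD8 T cells, and 0.09 in NK cells. *Slfn5*, a Schlafen family member, was highest in the endothelial gate (0.76 ± 0.32) and near 0 in the keratin gate (0.01).

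To ask which cells differed in these genes with the vaccine, UMIs were summed by pool and gate, and the 4 pools with PancVAX were compared with the 4 without it, and each antibody was a covariate. CD8 T cells of tumors treated with PancVAX had higher interferon-stimulated genes in every role group. In the edgeR fit, 33 of 49 members tested passed the threshold (adjusted *P* below 0.05 and an absolute log2 fold change above 0.5), and all 33 were higher. Among all 11112 genes tested the share past the threshold was 10.8%, and 6.85% were higher. The median log2 fold change of the members was 0.77, against 0.01 for all genes, and 49 of 49 members had a positive value. The pools did not overlap, with every PancVAX pool higher, for 35 members, compared with 12.6% of all genes. *Oas2* had too few UMIs in CD8 T cells to be tested. A sum over a gate does not separate more expressing cells from more RNA per cell.

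The largest changes were among the antiviral effectors, of which 12 of 13 members tested were higher (median log2 fold change 1.69). For genes tested, CPM are counts per 1000000 UMIs of the genes of the gate kept by the low-count filter, scaled by TMM. *Ifit1*, which binds viral RNA that lacks the host cap modification, had 56.6 CPM in the PancVAX pool. It had 55.0 with anti-PD-1 added, 35.7 with anti-CTLA-4 added, and 38.5 with both. Without PancVAX it had 11.0 in Isotype Control, 10.9 in Anti-PD-1, 4.63 in Anti-CTLA-4, and 9.22 in Anti-PD-1 + Anti-CTLA-4. All PancVAX pools were above all others, and the log2 fold change was 2.38 ± 0.14 (SE, adjusted *P* = 7.67e-06). *Ifit3*, its partner protein, had 95.4, 50.5, 47.9, and 56.1 CPM in the PancVAX pools in the same order, against 18.4, 17.5, 7.05, and 11.4 without PancVAX. The PancVAX pool without antibodies stood above the other 3, and no pool of one group reached the other (2.21 ± 0.23, adjusted *P* = 2.03e-04). *Rsad2*, which encodes viperin, an enzyme that makes a chain-ending nucleotide, had 40.2 CPM in the PancVAX pool and 17.7–21.4 in the other 3 PancVAX pools, against 5.03–8.88 without PancVAX (1.80 ± 0.24, adjusted *P* = 8.91e-04). *Cmpk2*, its neighbor gene that supplies nucleotides, rose by 1.94 and *Oas3* by 1.74 on the log2 scale. *Ifit3b*, a near copy of *Ifit3* whose reads may be hard to tell apart from it, rose by 2.30. *Oasl1* rose by 1.69 but its pools overlapped, since Isotype Control (4.52 CPM) was above PancVAX + Anti-CTLA-4 (4.24 CPM). *Bst2*, whose promoter is shown above, had 316, 238, 243, and 252 CPM with PancVAX and 156, 149, 128, and 144 without it (0.86 ± 0.09, adjusted *P* = 1.94e-04). *Isg20*, an exonuclease for viral RNA, was the member of the group that did not pass (0.22 ± 0.13, adjusted *P* = 0.262).

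**Figure D2:**
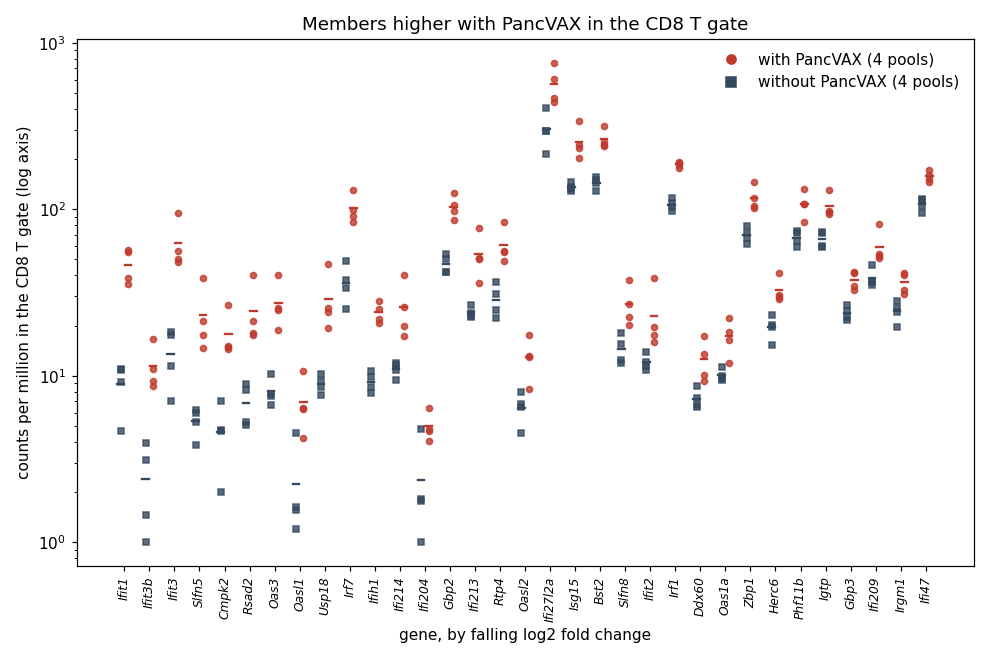
CPM, on a log axis, of the 33 interferon-stimulated genes past the threshold in the CD8 T gate, in order of falling log2 fold change, with 1 point for each of 8 pools and a dash for the mean of the 4 pools with or without PancVAX. For *Ifit1* the PancVAX pools sit at 35.7–56.6 and the others at 4.63–11.0, and for *Isg15* at 203–338 and 128–146.

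All 3 genes of the ISG15 system were higher. *Isg15* had 338 CPM in the PancVAX pool, 242 with anti-PD-1, 203 with anti-CTLA-4, and 232 with both, and 146, 128, 132, and 137 without PancVAX. The groups did not overlap, and the log2 fold change was 0.88 ± 0.12 (adjusted *P* = 7.16e-04). *Usp18*, the protease that removes ISG15 and damps the type I receptor, rose by 1.64 ± 0.24, with 19.5–46.9 CPM against 7.65–10.2. *Herc6*, the mouse ligase for ISG15, rose by 0.72 ± 0.13.

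Of the transcription factors, 2 of 4 passed. *Irf7*, the factor that amplifies type I interferon, had 131, 83.8, 91.1, and 98.2 CPM with PancVAX and 48.6, 37.8, 25.2, and 33.5 without it (1.49 ± 0.16, adjusted *P* = 2.40e-04). *Irf1*, which both IFN-γ and type I interferon induce, had 177–192 CPM in the PancVAX pools and 96.9–116 in the others (0.81 ± 0.07, adjusted *P* = 6.88e-05), and its 4 PancVAX pools were close together. *Stat2* and *Irf9*, the type I complex, had values of 0.49 and 0.42, under the fold threshold, and their pools did not overlap either. Among the RNA sensors, *Ifih1*, which encodes MDA5, had 20.7–28.2 CPM against 7.85–10.7 (1.38 ± 0.14, adjusted *P* = 2.22e-04), and *Ddx60* also passed at 0.77 ± 0.22. *Ddx58*, which encodes RIG-I, had 0.37 ± 0.10 and *Dhx58* 0.78 ± 0.25 (adjusted *P* = 0.0552), and neither passed.

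Of the GTPases, 5 of 9 were higher, with a median of 0.56. *Gbp2*, a guanylate-binding protein, had 106, 124, 85.8, and 97.8 CPM with PancVAX and 42.1, 42.0, 53.9, and 49.9 without it (1.13 ± 0.13, adjusted *P* = 3.58e-04). Here the PancVAX + Anti-PD-1 pool was highest, unlike for the effectors above, and the groups did not overlap. *Igtp* had a log2 fold change of 0.66 ± 0.09, *Gbp3* 0.64 ± 0.10, *Irgm1* 0.57 ± 0.10, and *Ifi47*, the group's most abundant member in these cells, 0.56 ± 0.07. *Iigp1* had 10.9–22.2 CPM with PancVAX and 13.1–15.9 without it, overlapping ranges with a value of 0.14 ± 0.18 (adjusted *P* = 0.628). All 4 PYHIN genes were higher, with *Ifi214* at 1.17 ± 0.18, *Ifi204* at 1.16 ± 0.36, *Ifi213* at 1.12 ± 0.19, and *Ifi209* at 0.60 ± 0.14, and only *Ifi204* had pools that overlapped. These genes belong to 1 cluster of related copies, so reads may be hard to assign to 1 of them.

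Of the other members, 5 of 12 were higher. *Ifi27l2a* had 757, 438, 463, and 601 CPM with PancVAX and 405, 296, 216, and 294 without it (0.91 ± 0.18, adjusted *P* = 6.87e-03), with its lowest PancVAX pool just above Isotype Control. *Slfn5* had 38.8 CPM in the PancVAX pool and 14.6–21.3 in the other 3, against 3.82–6.21 without PancVAX (2.06 ± 0.29, adjusted *P* = 1.17e-03). *Rtp4*, a chaperone of membrane receptors that restricts some viruses, rose by 1.09 ± 0.15, *Slfn8* by 0.86 ± 0.13, and *Phf11b* by 0.66 ± 0.14. The 7 that did not pass, among them *Sp100* (0.40), *Xaf1* (0.33), and *Trim30a* (0.23), had positive values of 0.23–0.75. By promoter, an ISRE core was present for 19 of 28 members that were called and 6 of 13 that were not, and a GAS core for 5 of 28 and 5 of 13.

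Of 31 genes of the interferon pathway outside the list that were tested in CD8 T cells, 4 were higher and 2 lower. Of all 11112 genes tested, 761 were higher and 443 lower. *Cxcl10*, the chemokine that recruits CXCR3+ T cells, had 144, 141, 66.9, and 97.9 CPM with PancVAX and 20.6, 24.4, 28.2, and 32.2 without it (2.02 ± 0.22, adjusted *P* = 2.60e-04). *Socs3*, a feedback inhibitor of cytokine receptors, rose by 1.22 ± 0.09, *Ifnar2* by 0.68 ± 0.13, and *Ifngr1* by 0.53 ± 0.06. *Irf8* had 112–124 CPM with PancVAX and 282–312 without it, and it fell by 1.32 on the log2 scale (adjusted *P* = 2.41e-06). *Ptpn6*, which encodes the phosphatase SHP-1, fell by 0.78. *Ifnar1* (0.06 ± 0.08, adjusted *P* = 0.630) did not pass.

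The number of CD8 T cells with several of these genes on was also compared at equal depth, since the median UMIs per cell were 3097–3943 in libraries with PancVAX and 4170–5544 in libraries without it. After each cell was thinned to 1000 UMIs, at least 4 of the 50 genes were detected in 36.0% of CD8 T cells of the PancVAX pool, 26.2% with anti-PD-1, 28.8% with anti-CTLA-4, and 27.8% with both. The pools without PancVAX had 14.0% in Isotype Control, 14.3% in Anti-PD-1, 12.0% in Anti-CTLA-4, and 13.3% in Anti-PD-1 + Anti-CTLA-4. The groups did not overlap, at 29.7% ± 4.36 against 13.4% ± 1.02 (SD, n = 4 pools each), and no test was made of this share. Without thinning the means were 82.6% and 77.8%, a difference of 4.80 points in place of 16.3. For scale, B cells, the lowest gate in summed level, had shares of 8.01% with PancVAX and 9.46% without it at the same depth, and neutrophils had 38.3% and 43.9%.

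**Figure D3:**
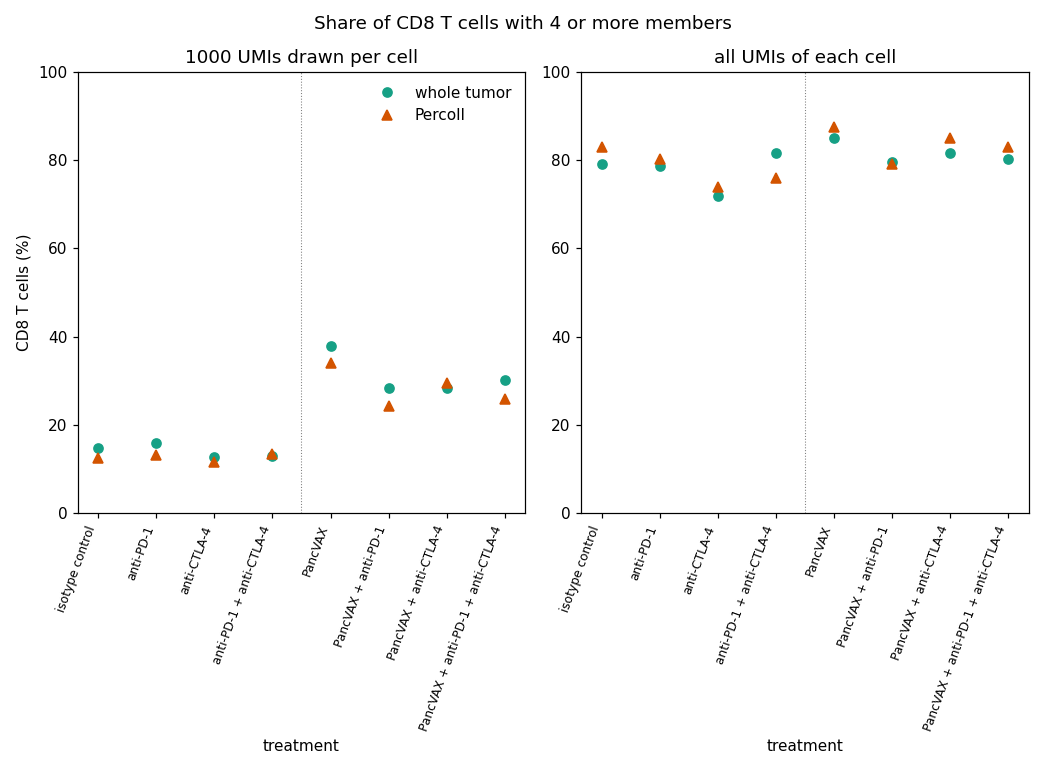
Share of CD8 T cells (percent) with at least 4 of 50 interferon-stimulated genes detected after thinning to 1000 UMIs, in the left panel and with all UMIs in the right panel, for each library by treatment (circles, whole tumor, triangles, Percoll). At 1000 UMIs the pools of both libraries have 26.2–36.0% with PancVAX and 12.0–14.3% without it.

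The genes were also compared within the CD8 T gate. Cells with a UMI of *Pdcd1* or *Havcr2*, receptors of exhausted or activated T cells, were 45.5–54.5% of CD8 T cells with PancVAX and 65.1–73.3% without it, but detection depends on depth, and at 1000 UMIs per cell the pools overlapped, at 22.5–28.7% and 27.8–34.1%. Within these cells the summed level was 34.1 counts per 10,000 with PancVAX and 18.8 without it (means of 4 pools), and 31 of 48 members tested were higher, where 8.99% of all genes passed. In cells with neither receptor detected the levels were 45.1 and 29.5, and 15 of 48 members were higher, where 7.29% of all genes passed. *Ifit1* had a log2 fold change of 2.28 in the first subset and 2.01 in the second, and *Usp18* 2.13 and 0.85 (edgeR, adjusted *P* = 0.0970 for the last value, which did not pass). The difference between the subsets was not tested, cells without a detected receptor can include ones that express it, and the subsets were chosen after seeing the data.

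Summed markers of other cells in the CD8 T gate differed between the pools with and without PancVAX in both directions, and their part in the result was not tested. The sum of 8 neutrophil markers was 109–439 CPM with PancVAX and 85.6–123 without it, where neutrophils themselves had 59509. The sum of 8 monocyte and macrophage markers was 276–374 against 230–275 (own gate 17260), that of the keratin gate 59.0–269 against 31.7–63.5 (own gate 2932), and that of the collagen gate 43.7–149 against 18.1–45.1 (own gate 7407). Lower without overlap were the B cell sum, at 28.8–61.5 against 62.7–85.9, and the plasmacytoid sum, at 224–241 against 358–391. The plasmacytoid list includes *Irf8*, whose own fall in CPM, described above, was larger than that of this sum. The NK, dendritic, and endothelial sums overlapped. *Retnlg*, a neutrophil marker, was at 0 in 3 pools without PancVAX. With only cells in which no marker of another gate was detected, 30 of 48 members tested were higher, where 12.2% of all genes passed, and 27 of these 30 were among the 33 above.

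For part of the members the change with PancVAX was larger in CD8 T cells than in each of 4 gates it was tested against. In the other 9 gates, 0 members passed in the edgeR fit. *P* before adjustment was below 0.05 for 5 of 36 members in CD4 T cells (13% of all genes), 3 of 18 in NK cells (8.5%), 6 of 33 in B cells (5.83%), 5 of 49 in monocytes and macrophages (16.2%), and 9 of 46 in neutrophils (6.76%). It was below 0.05 for 1 of 28 in dendritic cells (5.8%), 11 of 47 in the keratin gate (15.6%), 14 of 42 in the collagen gate (11.8%), and 1 of 28 in the endothelial gate (6.72%). DESeq2 gave 2 members in the collagen gate and 0 in the other 8. The share of all genes past the threshold was 1.49% in CD4 T cells, 0.121% in monocytes and macrophages, 0.146% in neutrophils, 0.0088% in the keratin gate, 0.0734% in the collagen gate, 0.246% in the endothelial gate, and 0 in the other 3, so few genes of any kind were called. The member medians were 0.34 in the collagen gate, 0.18 in the keratin gate, 0.14 in dendritic cells, 0.03 in CD4 T cells, -0.07 in monocytes and macrophages, -0.09 in NK cells, -0.20 in the endothelial gate, -0.22 in neutrophils, and -0.25 in B cells. In a fit of 2 gates together, the log2 fold change was larger in CD8 T cells than in CD4 T cells for 8 of 48 members (1.3% of all genes differed in either direction), than in monocytes and macrophages for 34 of 50 (7.28%), than in neutrophils for 31 of 49 (3.68%), and than in the keratin gate for 8 of 50 (3.02%), and smaller for none. These fits also include members with too few UMIs to be tested in 1 of the gates alone. Among members tested in both gates alone, the counts were 8 of 36, 34 of 48, 31 of 45, and 8 of 46 in the same order, where 1.96%, 8.1%, 4.86%, and 3.46% of all such genes differed. *Ifit1* differed by 2.08 ± 0.44 from CD4 T cells and 1.07 ± 0.23 from the keratin gate, and *Slfn5* by 1.99 ± 0.32 from CD4 T cells. The 4 gates were chosen after seeing the data, and the gates differ in cells and thus in precision.

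**Figure D4:**
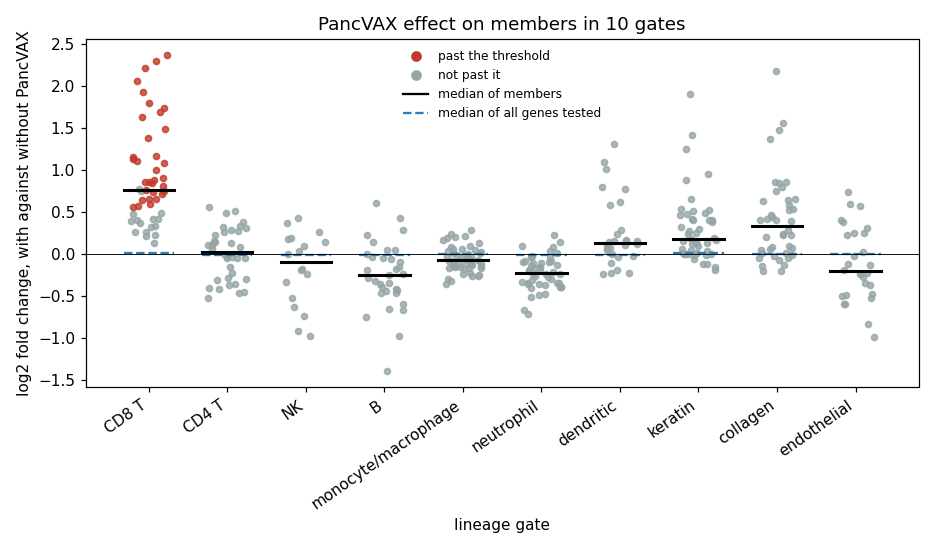
Log2 fold change with PancVAX over 8 pools of each interferon-stimulated gene tested (points, red where past the threshold) in 10 gates, with a black line at the median of the members and a dashed line at that of all genes. The median is 0.77 in CD8 T cells, where 33 of 49 passed, and -0.25 to 0.34 in the 9 other gates, where 0 passed.

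Monocytes and macrophages had levels that overlapped between the pools with and without PancVAX. *Isg15* had 572, 549, 401, and 588 CPM in the PancVAX pools (alone, with anti-PD-1, with anti-CTLA-4, and with both) and 571, 481, 457, and 458 in Isotype Control, Anti-PD-1, Anti-CTLA-4, and both antibodies, overlapping throughout (0.10 ± 0.10, adjusted *P* = 0.694). The summed level was 39.9 ± 6.06 counts per 10,000 in the 8 libraries with PancVAX and 39.3 ± 3.71 in the 8 without it. *Ifnar1* (0.11) and *Ifngr1* (0.06) did not pass in these cells. In CD8 T cells the same sum was 39.8 ± 6.49 with PancVAX and 22.5 ± 2.64 without it, and the first was within 1 SD of the level of monocytes and macrophages.

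Neutrophils, with the highest mean summed level, had a wide spread among the PancVAX pools. *Isg15* had 4581 CPM in the PancVAX pool, 2825 with anti-PD-1, 2013 with anti-CTLA-4, and 3052 with both, and 3064, 3868, 4220, and 3490 without PancVAX. The PancVAX pool was the highest and its 3 antibody-treated counterparts the lowest of all 8. *Rsad2* had 651 CPM in the PancVAX pool, 120–193 in the other 3, and 212–445 without PancVAX. When the PancVAX pool was left out, 13 of 47 neutrophil members passed, all lower with PancVAX, where 0.473% of all genes passed, so the count of 0 rests on that pool.

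In the collagen gate *Ifit1* had 15.8, 40.9, 13.1, and 24.0 CPM with PancVAX and 9.44, 13.5, 5.51, and 7.86 without it, which overlapped (1.37 ± 0.25, adjusted *P* = 0.0877). *Irf1* had 220–289 CPM against 134–184, with no overlap (0.65 ± 0.13, adjusted *P* = 0.124). Without the PancVAX + Anti-CTLA-4 pool, 5 of 41 members passed there, all higher, where 0.901% of all genes passed. In the keratin gate, whose share of Panc02 cells was not tested, *Ifit1* had 52.6 CPM in the PancVAX pool and 14.4–30.9 in the other PancVAX pools, against 4.84–15.7 without PancVAX (1.42 ± 0.25, adjusted *P* = 0.107). *Ifit3b* there had 3.45–8.68 against 0.967–2.42 CPM (1.91 ± 0.38, adjusted *P* = 0.107). In CD4 T cells the pools did not overlap for 1 of 36 members, compared with 4.45% of all genes higher without overlap. This was *Irf7*, with 64.8–101 CPM against 41.2–61.5 (0.56 ± 0.21, adjusted *P* = 0.225). Other gates had values in the opposite direction. Of the members at *P* below 0.05 before adjustment (edgeR), all 9 in neutrophils, all 3 in NK cells, and 5 of the 6 in B cells were lower with PancVAX. So were 3 of 5 in monocytes and macrophages and the 1 in the endothelial gate. All 14 in the collagen gate, all 11 in the keratin gate, 4 of 5 in CD4 T cells, and the 1 in dendritic cells were higher. *Isg20* in NK cells had 43.1–83.6 CPM with PancVAX and 107–132 without it, with no overlap (-0.97 ± 0.27, adjusted *P* = 0.194). It was 1 of 2 members of 18 that were lower without overlap there, compared with 2.69% of all genes. *Isg15* in B cells had 9.24–46.8 CPM against 21.2–171, which overlapped (-1.39 ± 0.45, adjusted *P* = 0.641).

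**Figure D5:**
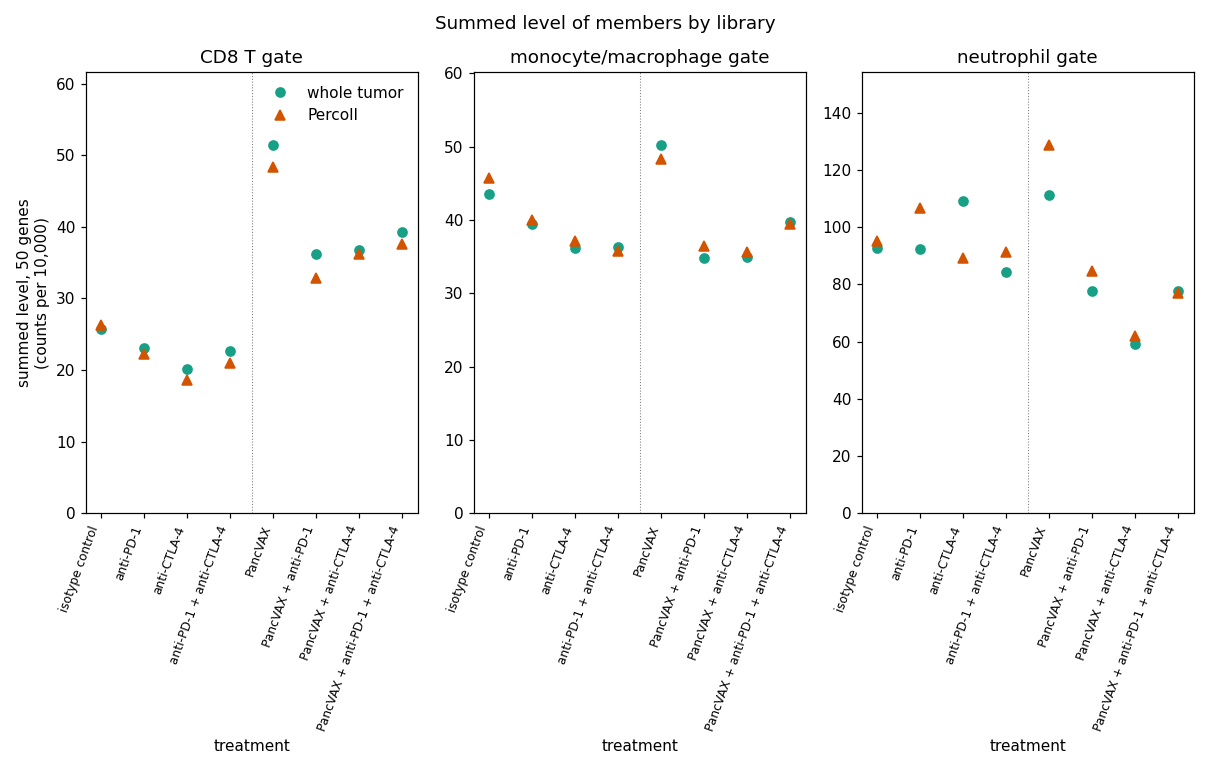
Summed level of the 50 interferon-stimulated genes (counts per 10,000) in each library by treatment (circles, whole tumor, triangles, Percoll), in the CD8 T, monocyte/macrophage, and neutrophil gates. In CD8 T cells the 8 libraries with PancVAX lie at 32.9–51.4 and the 8 without at 18.5–26.3, while in neutrophils they lie at 59.3–129 and 84.3–109.

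The PancVAX pools also differed among themselves. In CD8 T cells the summed members had 4492 CPM with PancVAX, 3143 with anti-PD-1 added, 3218 with anti-CTLA-4 added, and 3443 with both. Without PancVAX the sums were 2318 in Isotype Control, 2201 in Anti-PD-1, 1891 in Anti-CTLA-4, and 2052 with both antibodies. The PancVAX pool was the highest of all 8 pools for 43 of 49 members in CD8 T cells, compared with 14.1% of all genes. The same pool was the highest for 33 of 46 members in neutrophils (12.3% of all genes), 28 of 49 in monocytes and macrophages (11.6%), and 27 of 47 in the keratin gate (12.7%), but for 2 of 28 in the endothelial gate (18.8%) and 6 of 33 in B cells (10.4%). In the collagen gate PancVAX + Anti-PD-1 was highest for 15 of 42 members (11.5% of all genes) and PancVAX for 12 (20.9%). It is 1 pool, and whether its mice or its treatment set it apart cannot be told apart.

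Each antibody was a term of the same fit over all 8 pools, so that its value compares 4 pools with the antibody and 4 without it, and 2 of each 4 had also received PancVAX. In CD8 T cells, 0 of 49 members passed for anti-PD-1 and 0 for anti-CTLA-4 in the edgeR fit (0 of all genes passed for either), and DESeq2 gave 0 for both. Before adjustment *P* was below 0.05 for 2 members with anti-PD-1 (3.87% of all genes) and 12 with anti-CTLA-4 (3.54%). The medians were -0.12 and -0.24, with 43 and 48 of 49 values below 0, and *Ifit1* had -0.60 ± 0.13 with anti-CTLA-4. In monocytes and macrophages, 0 of 49 passed for either antibody (0 of all genes, and DESeq2 0), with *P* before adjustment below 0.05 for 7 and 10 members (5.98% and 4.98% of all genes). The medians were -0.14 and -0.20, and *Ifit3* had -0.58 ± 0.17 with anti-CTLA-4.

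PancVAX alone and Isotype Control were then compared in CD8 T cells by library, 2 against 2, in a fit of all 16 libraries with preparation as a covariate. With PancVAX 36 of 49 members were higher, where 6.16% of all genes passed in either direction and 3.8% were higher, and the median was 1.01. *Slfn5* had 35.5 and 42.3 CPM in the PancVAX libraries and 4.87 and 7.13 in the Isotype Control libraries (2.75 ± 0.34, adjusted *P* = 9.81e-05). *Ifit3* had 93.3 and 97.4 against 18.1 and 18.5 (2.38 ± 0.14, adjusted *P* = 5.38e-08). *Usp18* had 46.5 and 47.2 against 7.66 and 10.5 (2.37 ± 0.24), and *Isg15* 329 and 344 against 136 and 160 (1.19 ± 0.12). For 44 members both PancVAX libraries were above both others, compared with 21.8% of all genes. *Cxcl10* rose by 2.64 ± 0.56, and *Ifngr1* (0.45) and *Ifnar1* (0.14) did not pass. The libraries compared are 2 preparations of 1 treatment each, so that these *P* values hold for these preparations and not for separate groups of mice. The count was 17 without the whole-tumor library of Isotype Control and 24–29 without any of the other 3.

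With both antibodies added to PancVAX, 3 of 49 members were lower in CD8 T cells than with PancVAX alone (0.241% of all genes in either direction and 0.0869% lower). *Ifit3* had 53.9 and 57.5 CPM against 93.3 and 97.4 (-0.77 ± 0.11, adjusted *P* = 0.0040). *Ifi214* had 19.2 and 20.4 against 32.4 and 48.5 (adjusted *P* = 0.0190), and *Isg15* 215 and 243 against 329 and 344 (-0.56 ± 0.11, adjusted *P* = 0.0475). The libraries of the 2 treatments did not overlap for these 3 genes, and were lower without overlap for 36 members, compared with 16.5% of all genes. Values were below 0 for 48 of 49 members, with a median of -0.43, and *P* before adjustment was below 0.05 for 29 (7.49% of all genes). The calls were lost when any of the 4 libraries was left out and with DESeq2 (0 members each).

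The members were compared between preparations as well. In CD8 T cells 5 of 49 members differed between Percoll and whole-tumor libraries, 8 against 8, where 4.9% of all genes passed. *P* before adjustment was below 0.05 for 23 members, 3 higher and 20 lower after Percoll (29.6% of all genes in either direction). *Irf1* was higher after Percoll, at 97.0–242 against 81.7–162 CPM (0.50 ± 0.09). *Irgm2* (-0.90), *Iigp1* (-0.87), *Slfn5* (-0.78), and *Oas3* (-0.57) were lower, and all 5 had overlapping libraries. *Ifng* was at 171–312 CPM in Percoll and 75.1–151 in whole-tumor libraries without overlap (1.10 ± 0.09, adjusted *P* = 2.85e-07). In monocytes and macrophages 3 of 49 members differed, where 4.04% of all genes passed, and *P* before adjustment was below 0.05 for 24, 11 higher and 13 lower (30.2% of all genes). *Oasl1* had 31.2–82.5 CPM after Percoll and 17.4–29.2 in whole tumor without overlap (1.10 ± 0.15, adjusted *P* = 1.12e-04), and *Irgm2* (-0.54) and *Iigp1* (-0.51) were lower. *Ifnb1*, the gene of IFN-β, was higher after Percoll in these cells at 0–8.28 against 0–2.94 CPM (2.58 ± 0.51, adjusted *P* = 3.19e-03). Its libraries overlapped, and it was near the floor, with a UMI in at most 9 cells of any library. In the PancVAX + Anti-CTLA-4 libraries, 6 cells held 17 UMIs (whole tumor) and 5 cells held 22 (Percoll). Preparation and sequencing batch cannot be told apart.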

How the data were processed

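Single-cell 5′ RNA libraries (10x Genomics) of 16 tumor preparations were analysed, and 8 libraries of T cell receptors were not used here. The authors aligned reads and counted UMIs with Cell Ranger 4.0.0 (mm10 per the submitters' processing notes), and the deposited values are raw counts per gene and barcode. A barcode's suffix was matched to the library number in the sample description. The authors' limits on cells were applied (200–3000 genes, 1000–10000 UMIs, under 10% mitochondrial UMIs, no hemoglobin UMI). No doublet caller was run.

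A cell entered a gate if at least 2 of 5 markers were detected and more than of any other gate. T cells were split by *Cd8a* or *Cd8b1* against *Cd4*. Counts were summed by gate and pool, for pools of at least 20 cells, or by library of at least 10 cells. They were tested with the quasi-likelihood test of edgeR 4.0.16 (R 4.3.3, TMM, filterByExpr, Benjamini-Hochberg over all genes, two-sided). The SE of a log2 fold change was taken as its absolute value over the square root of the test's F statistic. The paper tested cells as replicates. Levels are means of natural-log counts per 10,000 plus 1. Thinning drew 1000 UMIs per cell (random seed 1).

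The authors' methods give preparation as the sequencing batch. The labels give no replicate numbers, and the replicate block is the preparation, in a fit of 16 libraries. That fit counts both libraries of a pool as separate samples. Its spread therefore mixes that among pools with that between preparations, and its units are not the pools. Members, pathway genes, gates, and roles were chosen with earlier results of these data known. Named genes were, in each comparison, up to 10 members past the threshold with the largest change and the most abundant member of each role group. Any member could be named with its values, as could pathway genes past the threshold, *Ifnar1*, and *Ifngr1*. Some items are not reported here. Scripts were tested on simulated data. The settings changed in turn were the tool (DESeq2 1.42.0), the low-count filter, no upper limits on cells, a stricter gate, 1 preparation only, the replicate block, each pool or library left out, and, chosen after seeing the data, CD8 T cell subsets and differences between gates.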

Additional observations from a re-analysis of the deposited data

Results flagged for a closer look

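Of 138 groups of 4 pools compared by Dixon's test, 10 held a pool far from the other 3, where chance gives about 1 in 20, or 6.9 of 138, so that the count by itself is not far from that share. In 7 of the 10, the PancVAX pool was above the other PancVAX pools in CD8 T cells. *Cmpk2* had 26.7 CPM there against 14.5–15.0, *Rsad2* 40.2 against 17.7–21.4, and *Ifit2* 38.6 against 15.8–19.5. *Herc6* had 41.3 against 28.8–30.3, *Igtp* 130.2 against 93.7–97.6, *Ifi209* 81.7 against 50.9–53.6, and *Xaf1* 66.8 against 45.2–48.7. Among CD8 T cells without PancVAX, the Isotype Control pool was above the others for *Oasl1* (4.52 against 1.21–1.63 CPM) and *Irgm2* (14.1 against 6.66–7.85 CPM). In B cells the Anti-PD-1 pool had the lowest summed level of the members, 1855 against 2242–2295 CPM.

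The log2 fold change with PancVAX differed between gates by a test of the difference itself. It was larger in CD8 T cells than in monocytes and macrophages for 34 of 50 members (7.28% of all genes differed in either direction). Against neutrophils it was larger for 31 of 49 (3.68%). Against CD4 T cells it was larger for 8 of 48 (1.3%), and against the keratin gate for 8 of 50 (3.02%). The 8 members of the comparison with CD4 T cells were *Ifit1*, *Slfn5* (1.99), *Ifih1* (1.53), *Ifi27l2a* (1.16), *Rtp4* (1.15), *Gbp2* (0.94), *Irf7* (0.88), and *Bst2* (0.54).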

How the results depend on the processing

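With PancVAX over the pools, CD8 T cells had 25–34 higher members (25–33 of them among the 33 of the report) under the other tools, filters, cells, and preparations. There were 28–36 without any 1 pool, 31 in cells with *Pdcd1* or *Havcr2*, and 15 in cells with neither detected. The replicate block, which counts both libraries of a pool as separate samples, gave 34. In the gates with 0 members, no filter gave 1 in CD4 T cells, 1 in B cells, 1 in neutrophils, 4 in the keratin gate, and 6 in the collagen gate. Whole-tumor libraries alone gave 1 in B cells, Percoll alone 1 in the keratin gate, no upper limits 1 in neutrophils, DESeq2 2 in the collagen gate, and the replicate block 2 in the keratin and 1 in the collagen gate. Leaving out 1 pool gave 0–13 in neutrophils (13 without PancVAX, 1 without Isotype Control), 0–5 in the collagen gate (5 without PancVAX + Anti-CTLA-4, 1 without Anti-CTLA-4), 0–1 in the keratin gate (1 without PancVAX + Anti-CTLA-4 or Anti-PD-1 + Anti-CTLA-4), 0–1 for anti-CTLA-4 in CD8 T cells (1 without PancVAX + Anti-PD-1), and 0–0 in the rest. PancVAX against Isotype Control gave 21 with the stricter gate and 17–29 without 1 library. Both antibodies against PancVAX alone gave 0 with DESeq2, 11 without the filter, 15 without upper limits, 1 with the stricter gate, 1 with no replicate block, and 0–0 without 1 library. Percoll against whole tumor gave 2 without upper limits and 3–5 without 1 treatment in CD8 T cells (3 without Isotype Control), and 1–4 in monocytes and macrophages (1 without Anti-PD-1). The share difference was 4.80 points unthinned and 14.2–17.5 without 1 pool. No value reversed. The counts here are given without each setting's share of all genes past the threshold. No excess over that share can be read from them. The causes were not tested. The stricter gate could not be fitted in NK, dendritic, collagen, and endothelial cells, nor Percoll alone in endothelial cells, for lack of cells. Depth limits the rare gates, and *Oas2* could not be tested in CD8 T cells.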

Other observations

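Of the type I interferon genes, few cells had a UMI. A UMI of *Ifna1*, *Ifna2*, *Ifna4*, or *Ifna5* was present in 2 of the 57357 cells. One was a plasmacytoid-gate cell of the Anti-CTLA-4 Percoll library, in which these 4 genes had 216 of its 3708 UMIs, and the other a monocyte/macrophage-gate cell of the PancVAX + Anti-PD-1 Percoll library, with 5 of 6413 UMIs. *Ifnb1* had 86 UMIs in all of the monocyte/macrophage gate and was detected in 0.287% of its cells. The PancVAX + Anti-CTLA-4 libraries had 17 of these UMIs from 6 cells (whole tumor) and 22 from 5 cells (Percoll), the PancVAX + Anti-PD-1 Percoll library had 17 from 9 cells, and each other library had 0–9. *Ifng*, the gene of IFN-γ, had 8830 UMIs in 10495 CD8 T cells, 894 in 1367 CD4 T cells, and 253 in 454 NK cells, totals that are not per cell. The log2 fold change of *Ifng* with PancVAX in CD8 T cells was 0.27 (edgeR, adjusted *P* = 0.245).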
